A study of Mus musculus with 36 samples.

Results

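Mouse embryonic stem cells (mESCs) kept for 48 h on soft StemBond hydrogels in serum + PD03 were compared with mESCs kept for 48 h on stiff StemBond hydrogels in serum + LIF + PD03. The comparison asks whether a soft substrate takes the place of LIF while MEK is inhibited. Its members were the 9 libraries whose column names carry these group names, 6 soft and 3 stiff, out of 36 libraries in 11 groups. The cells were wild type (129m wt), the hydrogels were coated with fibronectin, and serum and PD03 were present in both arms. The arms differed in both substrate and LIF, so that their effects cannot be told apart within this comparison. For that reason 2 more groups of 3 libraries each were set beside it, stiff substrates in serum + PD03 and soft substrates in serum + LIF + PD03. The labels name a single wild-type strain and do not say whether the libraries of a group came from separate cultures, so the p-values measure the spread between libraries, which may be technical.

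LIF is a cytokine that binds the LIF receptor and gp130 on mESCs and activates JAK kinases, which phosphorylate the transcription factor STAT3. STAT3 raises its own inhibitor Socs3 and naive pluripotency factors such as Klf4 and Tfcp2l1. PD03 inhibits MEK, the kinase that activates ERK, and ERK activity drives mESCs out of the naive state. The stiffness of a substrate is sensed through integrins and actin, and both SRF, with its actin-sensitive cofactors, and YAP, with TEAD factors, switch on cytoskeletal and matrix genes on stiff substrates.

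Expression is given as CPM, counts scaled to the effective size of each library, and a difference as a log2 fold change with its standard error (SE), positive where soft serum + PD03 was higher. A gene passed the test at an adjusted p under 0.05 in edgeR. The 15 libraries with PD03 held between 10405696 and 24800445 counts. The ERK-induced phosphatase Dusp6 was at 9.69 ± 0.73 CPM (SD, n = 6) on soft serum + PD03 and at 76.5 ± 0.87 CPM (n = 3) on stiff substrates with LIF but without PD03. These groups also differed in substrate and LIF, so the difference in Dusp6 is not that of PD03 alone. Within soft serum + PD03, library 2 was the shallowest and stood alone on the second principal component, at 46.9 where the other 5 lay between -10 and -2, while library 3 had the largest count differences per gene from each of the others. A library identifier in the sample descriptions was shared by all stiff libraries with PD03 and by 2 of the 6 soft serum + PD03 libraries, while the other 4 and all 3 soft serum + LIF + PD03 libraries carried a second identifier. The columns do not show which 2 these were, so the identifier was modelled under each of the 15 possible assignments. These fits held the 15 libraries with PD03 alone.

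Of 17702 genes tested, 2525 (14.3%) passed the test between soft serum + PD03 and stiff serum + LIF + PD03. Of these, 1187 (6.71% of all genes tested) were higher and 1338 (7.56%) were lower on soft serum + PD03. Large differences lay mainly on the lower side, where 221 genes fell by more than 2-fold while 21 rose by as much. The median log2 fold change over all genes was 0.01. For 41.1% of the genes tested, the 95% interval of the difference lay within 0.32 log2 units of 0 in either direction, called the narrow margin here. Intervals are wider for genes of low counts, so a share within the margin also depends on the level of the genes counted. Without soft libraries 2 and 3, a setting chosen after seeing the data, 2277 genes passed. In fits of the 15 PD03 libraries alone, 2799 genes passed without the identifier as a term and between 1184 and 2210 with it. Without the first stiff serum + LIF + PD03 library, 1617 genes passed.

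The effects of LIF and of the substrate taken singly, which share libraries with this comparison, were unequal in size. Adding LIF on stiff substrates under PD03 changed 91 genes (0.514%), with 0.294% of genes higher and 0.22% lower, and between 24 and 82 genes without 1 library, the fewest without the first stiff serum + LIF + PD03 library. Adding LIF on soft substrates changed 19 (0.107%), with 0.0395% higher and 0.0678% lower, and 3 without the third soft serum + LIF + PD03 library. DESeq2 gave 156 and 44 genes for LIF on stiff and on soft substrates. Soft against stiff substrates changed 982 genes (5.55%) in serum + PD03, with 2.13% higher and 3.42% lower on soft, and 1348 genes (7.61%) in serum + LIF + PD03, with 2.8% higher and 4.82% lower. The library identifier and the substrate cannot be told apart within the second of these comparisons. In fits of the 15 PD03 libraries with the identifier as a term, its count was as low as 326, against 376 in serum + PD03. Without the first stiff serum + PD03 library, 520 genes changed with the substrate in serum + PD03.

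Promoter sequences are shown for genes on which the results turn, an immediate STAT3 target and a pair of SRF targets that fell. They are the 250 bases before the start site, 5′ to 3′ on the strand of the gene, from RefSeq (GRCm38.p6). Capitals mark the motif of each family, TTCNNNGAA for STAT factors and the CArG box for SRF, both of which read the same on either strand. The STAT motif was found in 7.02% of all 32851 promoter windows of this length and in 3 of the 12 LIF-STAT3 targets with a window (Icam1, Sbno2 and Socs3). The CArG box was found in 1.47% of all windows and in 6 of the 17 SRF and actin genes with a window (Acta1, Actg1, Cnn2, Myl9, Srf and Vcl). The shares over all windows count each window, while a listed gene counts once if any of its windows holds the motif, so these are unlike measures. A match is a description of letters, not of a bound site. Acta1 and Cnn2 have the largest differences among the SRF genes with a box, while Socs3 was picked after its values were seen, since neither LIF-STAT3 target that passed the test has the motif in its window.
Socs3, chr11:117969367-117969616, minus strand: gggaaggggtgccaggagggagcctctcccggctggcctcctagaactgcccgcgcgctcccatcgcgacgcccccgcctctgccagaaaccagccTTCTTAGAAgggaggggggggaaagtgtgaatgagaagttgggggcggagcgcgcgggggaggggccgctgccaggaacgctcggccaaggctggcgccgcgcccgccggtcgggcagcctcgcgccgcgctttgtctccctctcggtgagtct
Acta1, chr8:123894776-123895025, minus strand: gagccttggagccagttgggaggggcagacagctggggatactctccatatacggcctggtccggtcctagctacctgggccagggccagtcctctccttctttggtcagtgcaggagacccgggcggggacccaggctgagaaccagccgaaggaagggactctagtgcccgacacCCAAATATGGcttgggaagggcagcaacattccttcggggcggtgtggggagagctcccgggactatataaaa
Cnn2, chr10:79988350-79988599, plus strand: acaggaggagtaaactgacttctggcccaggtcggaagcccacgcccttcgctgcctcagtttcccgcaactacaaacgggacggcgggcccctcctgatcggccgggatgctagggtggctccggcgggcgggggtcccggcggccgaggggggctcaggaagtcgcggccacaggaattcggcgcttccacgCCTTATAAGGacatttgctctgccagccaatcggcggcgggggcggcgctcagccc

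Most STAT3 targets differed little between soft substrates without LIF and stiff substrates with LIF. Socs3 (chr11:117966079-117970047), the feedback inhibitor of JAK and STAT3 signalling, was at 55.4, 59.5 and 61.3 CPM (lowest, median and highest of 6) on soft serum + PD03 and at 54.1, 55.3 and 56.6 CPM on stiff serum + LIF + PD03. The ranges overlapped, and the difference of 0.10 ± 0.06 (95% interval -0.03 to 0.22) did not pass the test (adjusted p = 0.336). On stiff serum + PD03, Socs3 was at 40.8, 42.1 and 47.5 CPM, below every library of both compared groups. It rose by 0.34 ± 0.07 when LIF was added on stiff substrates under PD03 (adjusted p = 0.0115), a call that held in 2 of the 6 fits without 1 library, failing without the first or second stiff serum + LIF + PD03 library or library 1 or 3 of stiff serum + PD03 (adjusted p up to 0.104). It was 0.44 higher on soft than on stiff substrates in serum + PD03 (adjusted p = 3.25e-06), as in all 9 fits without 1 library. Adding LIF on soft substrates gave a difference of 0.08, which did not pass (adjusted p = 0.781). The interaction of substrate and LIF did not pass either for Socs3 (adjusted p = 0.848), so LIF was not shown to act differently on the substrates.

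Klf4 (chr4:55527143-55532466), a naive pluripotency factor downstream of STAT3, was at 271, 286 and 296 CPM on soft serum + PD03. The stiff serum + LIF + PD03 libraries held 246, 255 and 256 CPM, without overlap. Klf4 was thus higher by 0.18 ± 0.04 (adjusted p = 0.000768) and passed in 12 of the 15 identifier assignments. Tfcp2l1, which links LIF to the naive network, was at 691 to 742 CPM on soft serum + PD03 and at 645, 680 and 698 CPM on stiff serum + LIF + PD03, and its difference of 0.08 ± 0.04 did not pass (adjusted p = 0.191). Stat3 itself was at 84.3 to 95.4 and at 79.3 to 86.3 CPM, overlapping, with a difference of 0.11 ± 0.05 (adjusted p = 0.129). Of the 14 LIF-STAT3 targets tested, Klf4 rose and the low-level receptor subunit Osmr fell. For 12 of the 14 the 95% interval lay within the narrow margin, against 41.1% of all genes, whose levels were not matched. The list median was 0.10 against 0.01. LIF on stiff substrates under PD03 itself changed 1 of the 14 (Socs3), against 0.514% of all genes, with a list median of 0.10. For most of the list there was thus no LIF effect that passed under PD03 for the soft substrate to match. In serum + PD03, 6 of the 14 were higher on soft than on stiff substrates and none was lower. Over all genes, 2.13% were higher and 3.42% lower in that comparison. The genes of the list that did not pass, Bcl3, Gbx2, Icam1, Junb, Klf5, Myc, Pim1, Pim3, Sbno2, Socs3, Stat3 and Tfcp2l1, had differences between -0.12 and 0.42.

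Of 13 tested genes of the LIF receptor and JAK-STAT pathway, 2 rose and 4 fell, against 6.71% and 7.56% of all genes. The list median was 0.00. Lif, the cytokine gene, fell by 0.57 ± 0.12 (adjusted p = 0.000331), from 11.7, 11.9 and 12.2 CPM on stiff serum + LIF + PD03 to between 6.79 and 9.03 CPM on soft serum + PD03. On stiff serum + PD03, Lif had a median of 8.73 CPM, and the difference with LIF on stiff substrates, 0.38, did not pass (adjusted p = 0.297). Jak1, a kinase bound to gp130, fell by 0.20, Ptpn11, the phosphatase SHP2, fell by 0.17, and Osmr, a relative of the LIF receptor, fell by 1.29 from a level of 1.64 to 2.31 CPM. The receptor gene Lifr rose by 0.14 ± 0.04 (adjusted p = 0.00849), and the feedback gene Socs2 rose by 0.34 ± 0.07 (adjusted p = 0.000472). The gp130 gene Il6st had a difference of 0.00 ± 0.04. The others, Cish, Jak2, Pias3, Socs1, Stat3 and Tyk2, did not pass, with differences between -0.30 and 0.18. Only Lif of the 6 genes that passed did so in all 15 identifier assignments.

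**Figure D1:**
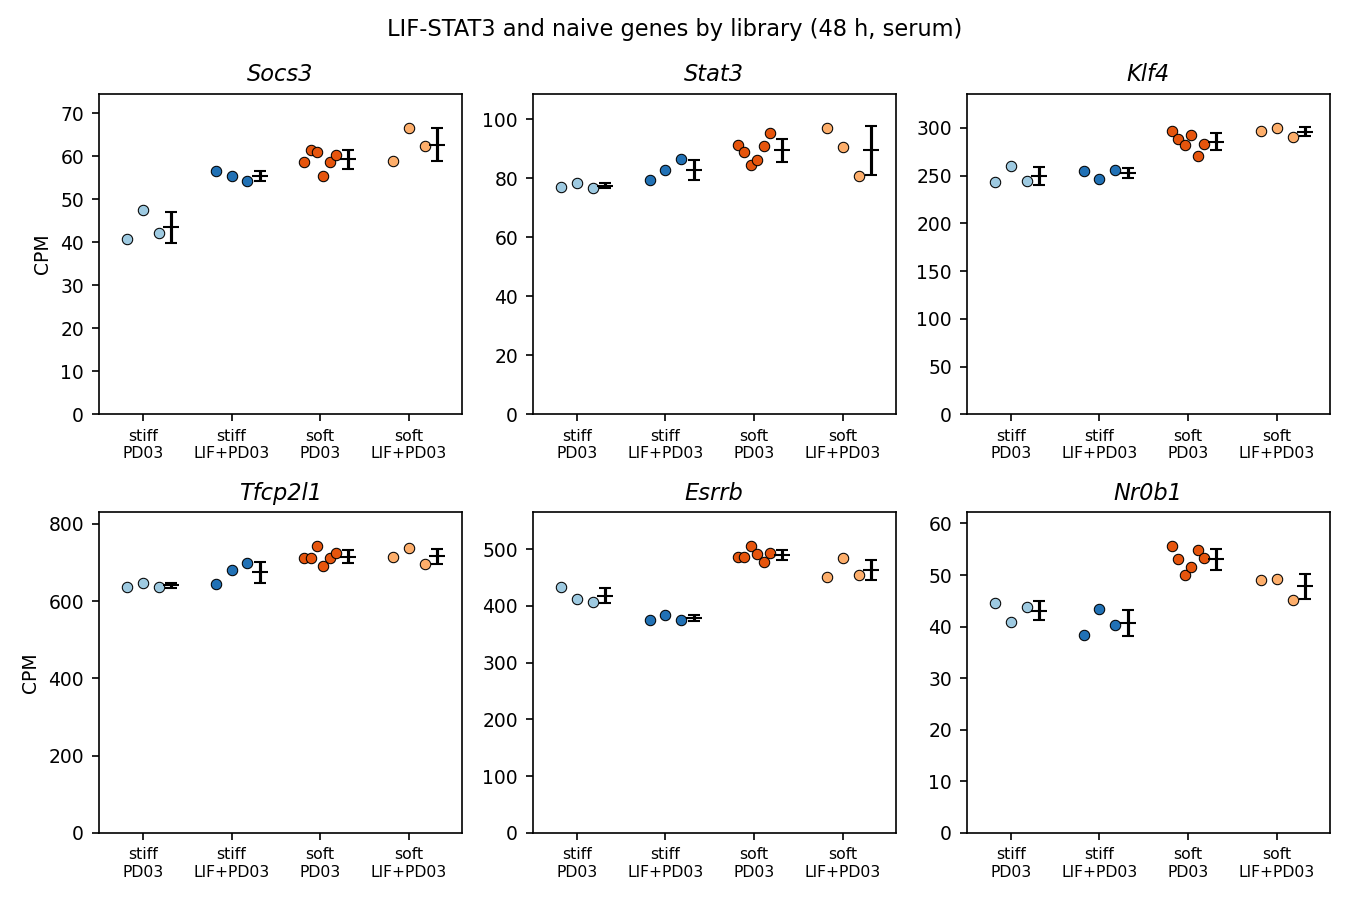
Expression (CPM, linear axis from 0) of Socs3, Stat3, Klf4, Tfcp2l1, Esrrb and Nr0b1 in each library of the 4 PD03 groups, with the mean and SD beside the points (n = 6 for soft + PD03, n = 3 for the others). Socs3 on soft substrates without LIF, at 55.4 to 61.3 CPM, lies beside stiff + LIF + PD03 and above stiff + PD03, while Esrrb and Nr0b1 lie above both stiff groups.

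Of 15 naive pluripotency genes tested, 6 rose on soft substrates without LIF against stiff substrates with LIF, and none fell. Over all genes, 6.71% rose and 7.56% fell. All 15 naive genes had a difference above 0, with a median of 0.13. In serum + PD03 alone, 7 of the 15 were higher on soft substrates, against 2.13% of all genes. None of the 15 passed for LIF on stiff substrates under PD03, where 0.514% of all genes did. Esrrb (chr12:86361117-86521628), a nuclear receptor of the naive network, was at 477, 490 and 505 CPM on soft serum + PD03 and at 375, 376 and 384 CPM on stiff serum + LIF + PD03. Every soft library was above every stiff one, and the difference was 0.37 ± 0.04 (adjusted p = 2.78e-10). On stiff serum + PD03, Esrrb was at 408 to 433 CPM, between the levels of these groups.

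Nr0b1 (Dax1), a partner of the naive factors, rose by 0.39 ± 0.06 (adjusted p = 1.04e-06), from 38.3, 40.2 and 43.4 CPM to between 50.1 and 55.6 CPM. Tcl1, a coactivator of AKT, rose by 0.36 ± 0.07, and Prdm14, a repressor of formative and germ layer genes, rose by 0.27 ± 0.08. Zfp42 (Rex1), a marker of naive cells, rose by 0.19 ± 0.05 (adjusted p = 0.00439), although its ranges overlapped. Nanog was at 816 to 903 CPM against 777, 793 and 816 CPM, and its difference of 0.12 ± 0.05 did not pass (adjusted p = 0.0757). The others that did not pass, Dppa3, Fbxo15, Gbx2, Klf2, Klf5, Nr5a2, Tbx3 and Tfcp2l1, had differences between 0.01 and 0.42. Esrrb, Nr0b1 and Tcl1 passed in all 15 identifier assignments, Prdm14 in 14 and Zfp42 in 9.

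Among the 5 general pluripotency genes, 3 rose and none fell, against 6.71% and 7.56% of all genes. Utf1, a chromatin protein of pluripotent cells, was at 144, 153 and 165 CPM on soft serum + PD03 and at 96.0, 102 and 110 CPM on stiff serum + LIF + PD03, a difference of 0.59 ± 0.05 (adjusted p = 1.68e-13). Utf1 fell by 0.25 when LIF was added on stiff substrates under PD03 (adjusted p = 0.0179), which held only without the first stiff serum + LIF + PD03 library among the 6 fits without 1 library (adjusted p up to 0.259). It was 0.34 higher on soft than on stiff substrates in serum + PD03 (adjusted p = 1.62e-06). Sox2, a core pluripotency factor, rose by 0.26 ± 0.04 (adjusted p = 8.14e-07), and Sall4 rose by 0.13 ± 0.04. Pou5f1 (Oct4) had a difference of 0.13 ± 0.06 that did not pass (adjusted p = 0.131), and Lin28a one of 0.00 ± 0.05.

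Of 8 formative genes, which mark cells leaving the naive state, 3 rose and none fell, against 6.71% and 7.56% of all genes. In serum + PD03, none of the 8 was higher on soft than on stiff substrates, with a median of -0.01. In serum + LIF + PD03, 3 of the 8 were higher on soft substrates, against 2.8% of all genes, with a median of 0.06. The library identifier and the substrate cannot be told apart in the latter comparison. Otx2, which directs the formative programme, was at 42.7, 44.2 and 49.2 CPM on soft serum + PD03 and at 33.1, 33.2 and 34.7 CPM on stiff serum + LIF + PD03. The difference of 0.41 ± 0.08 passed (adjusted p = 5.08e-05), as it did in all 15 identifier assignments. Zic2 rose by 0.27 ± 0.06 and the DNA methyltransferase gene Dnmt3a by 0.15 ± 0.05. Pou3f1, Dnmt3b, Lef1, Sox3 and Fgf5 did not pass, with Fgf5 at no more than 0.352 CPM in any of the 9 libraries. Without PD03, LIF on stiff substrates lowered 7 of the 8 formative genes, while under PD03 none of them passed, where 0.514% of all genes did.

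**Figure D2:**
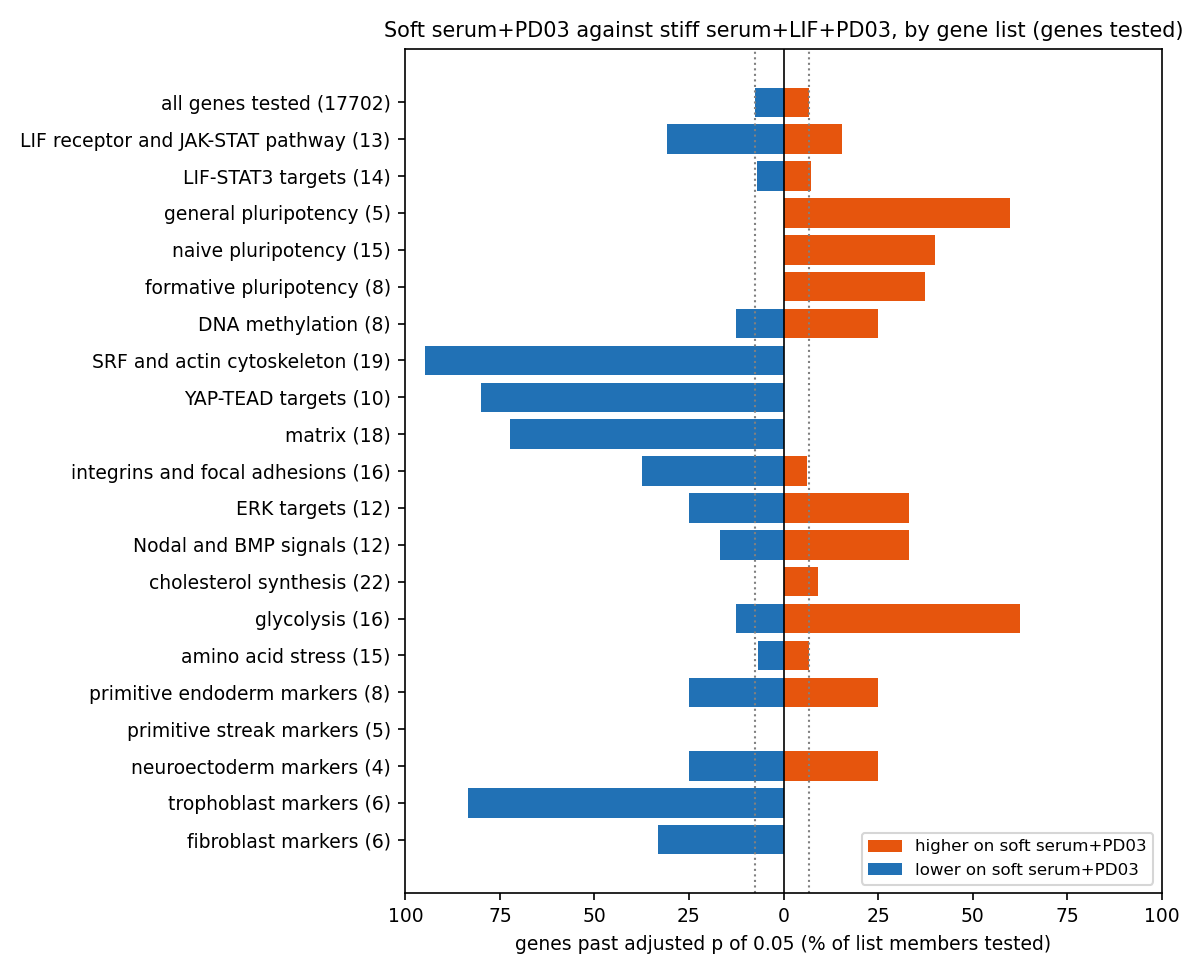
Share of the tested members of each gene list (percent, horizontal axis) that passed an adjusted p of 0.05 higher (right, orange) or lower (left, blue) on soft serum + PD03 than on stiff serum + LIF + PD03, with the number of genes tested in brackets. Dotted lines mark the shares over all genes, 6.71% higher and 7.56% lower. The actin, YAP-TEAD, matrix and trophoblast lists lie on the lower side, and the pluripotency and glycolysis lists mainly on the higher side.

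Genes that respond to LIF were also defined in libraries that took no part in this comparison, stiff substrates without PD03, where LIF raised 126 genes (0.712%) and lowered 123 (0.695%), together 1.41% of genes tested. Of the 126 raised by LIF, 39 were higher on soft serum + PD03 than on stiff serum + LIF + PD03 and 3 were lower, against 6.71% and 7.56% of all genes. Their median difference was 0.11, and 65.1% had a 95% interval within the narrow margin against 41.1% of all genes, whose levels were not matched. Of the 123 lowered by LIF, 54 (43.9%) were lower and 15 (12.2%) were higher, with a median of -0.16. For soft against stiff substrates in serum + PD03, 43 of the 126 were higher and 1 was lower. Of the 123, 6 were higher and 44 were lower there, against 2.13% and 3.42% of all genes. Under PD03, LIF on stiff substrates raised 1 of the 126 (Socs3) and lowered 1 (Trh), together 1.59%, and of the 123 it raised 6 and lowered 1, together 5.69%, against 0.514% of all genes. The labels give 1 of the 3 stiff serum + LIF libraries another identifier than the other 2 and the stiff serum libraries, and the columns do not show which. Defined without library 1, 2 or 3 of stiff serum + LIF, a setting chosen after seeing the data, the genes raised by LIF numbered 66, 63 and 88, of which 19, 16 and 27 were higher on soft serum + PD03. Those lowered by LIF numbered 52, 79 and 114, of which 19, 29 and 56 were lower.

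Of the genes with the smallest p for the rise with LIF, Socs3, Klf4 and Tfcp2l1 are given above. Jam2, a junction protein, rose by 0.25 ± 0.04 on soft serum + PD03 (adjusted p = 2.08e-06), from 389 to 395 CPM to 446 to 484 CPM. Mras, a RAS relative, had a difference of 0.10 ± 0.04 (adjusted p = 0.109). Of those with the smallest p for the fall with LIF, the adhesion protein gene Zyx, the semaphorin Sema6a and the tight junction gene Cgn fell by 0.66, 0.84 and 0.75. The kinase gene Pim2 rose by 0.21, and Pou3f1 had a difference of -0.07 that did not pass (adjusted p = 0.817). The 123 genes lowered by LIF held 15 members of the actin, YAP-TEAD, matrix and adhesion lists below. The 126 genes raised by LIF held 13 members of the naive and LIF-STAT3 lists.

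**Figure D3:**
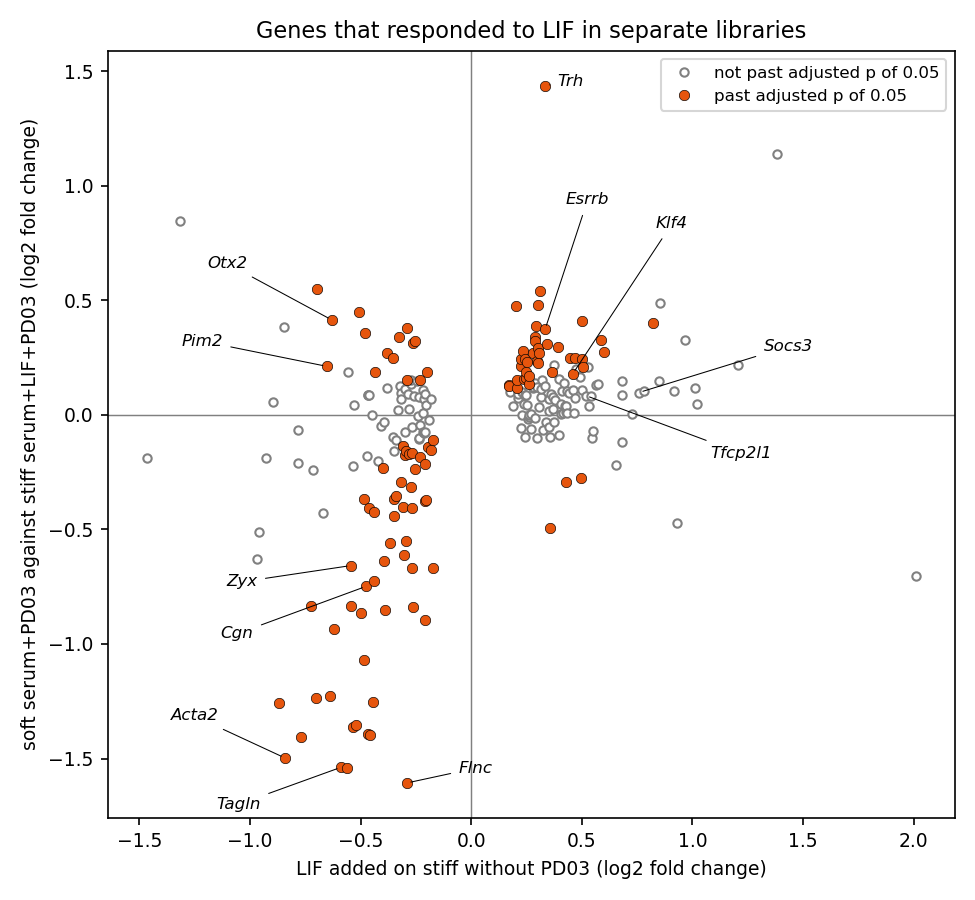
Each point is 1 of the 249 genes that passed an adjusted p of 0.05 for LIF on stiff substrates without PD03, with that log2 fold change on the horizontal axis and the log2 fold change of soft serum + PD03 against stiff serum + LIF + PD03, from other libraries, on the vertical axis. Filled points also passed in the second comparison, 39 higher and 3 lower among the genes raised by LIF, and 54 lower and 15 higher among those it lowered.

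The Nodal antagonists Lefty1 and Lefty2 were lowered by LIF on both substrates, and neither passed for the substrate in serum + PD03. Lefty2 (chr1:180893108-180899103) was at 67.6, 81.1 and 89.9 CPM on soft serum + PD03 and at 48.3, 48.5 and 51.9 CPM on stiff serum + LIF + PD03, a rise of 0.70 ± 0.07 (adjusted p = 1.32e-10). Stiff serum + PD03 held 77.2, 79.6 and 89.4 CPM, within the range of the soft libraries without LIF. LIF lowered Lefty2 by 0.73 on stiff (adjusted p = 1.54e-07) and by 0.48 on soft substrates (adjusted p = 0.00041), and the substrate difference in serum + PD03 was -0.03 (adjusted p = 0.881). Lefty1 rose by 0.56 ± 0.10 in the comparison (adjusted p = 4.24e-05), and LIF lowered it by 0.80 on stiff and by 0.57 on soft substrates, the latter not without the first soft serum + LIF + PD03 library (highest adjusted p = 0.112). Of the 12 genes of Nodal and BMP signalling, 4 rose (also Tdgf1, the Nodal coreceptor Cripto, by 0.23, and Gdf3 by 0.18). The BMP target Id3 and Bmp4 fell by 0.47 and 0.46. Over all genes, 6.71% rose and 7.56% fell.

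**Figure D4:**
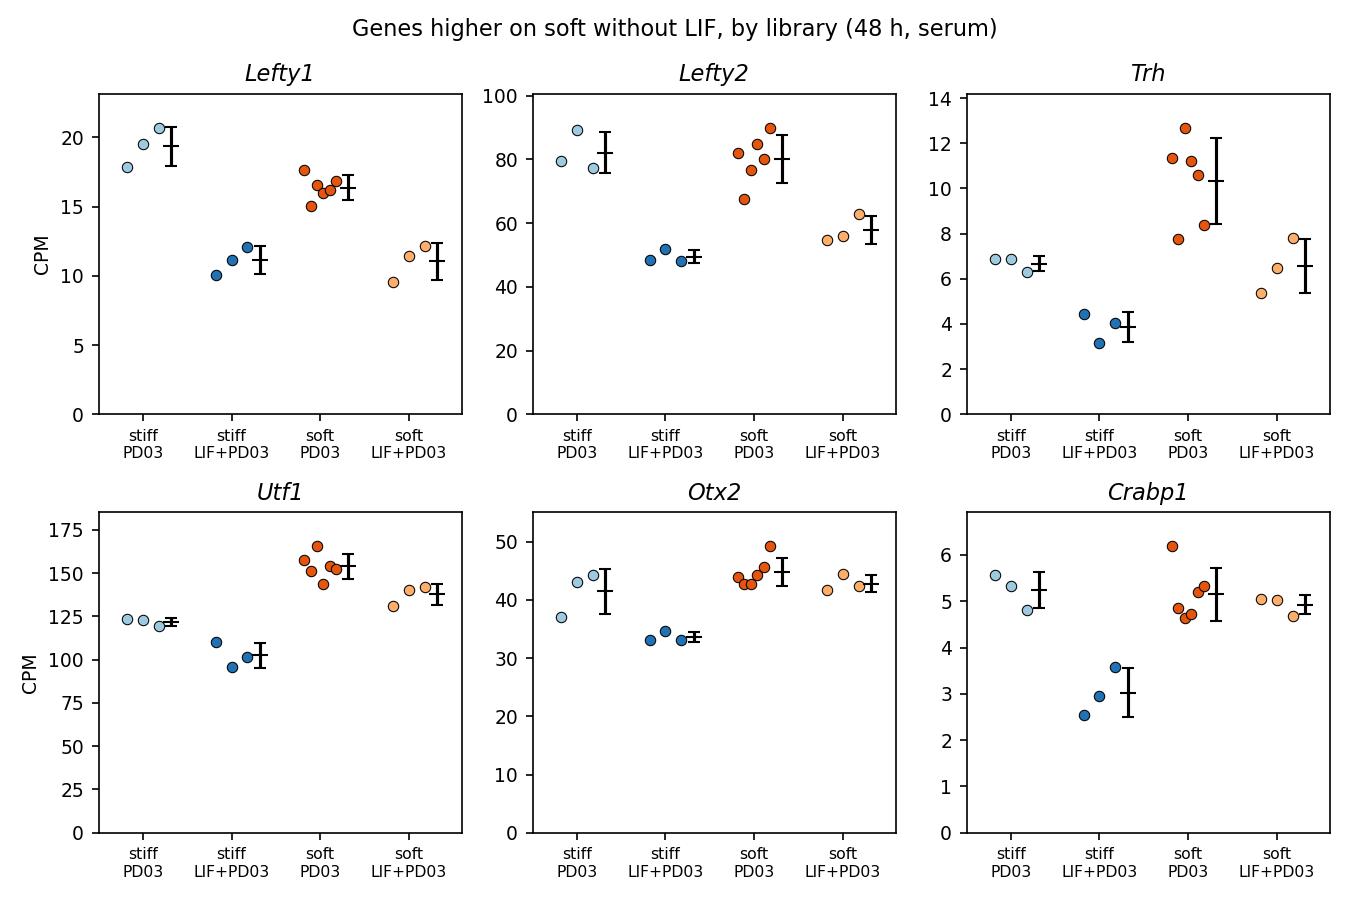
Expression (CPM, linear axis from 0) of Lefty1, Lefty2, Trh, Utf1, Otx2 and Crabp1 in each library of the 4 PD03 groups, with the mean and SD beside the points (n = 6 for soft + PD03, n = 3 for the others). For Lefty1 and Lefty2 the LIF groups are low on both substrates, and for Crabp1 only stiff + LIF + PD03 is low, at 2.53 to 3.58 CPM.

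Actin genes were among those with the largest differences. Of 19 tested genes of SRF and the actin cytoskeleton, 18 fell, against 7.56% of all genes, with a median of -0.55 against 0.01. Of the 18, 16 passed in all 15 identifier assignments. Flnc (chr6:29433256-29461883), an actin crosslinker, was at 40.1, 47.8 and 50.5 CPM on soft serum + PD03 and at 139, 142 and 146 CPM on stiff serum + LIF + PD03. It fell by 1.61 ± 0.06 (adjusted p = 4.48e-27), or 3.05-fold. The smooth muscle actin gene Acta2 was at 50.7, 62.9 and 69.6 CPM against 153, 173 and 189 CPM, and it was 2.82-fold lower (adjusted p = 6.2e-20). These ranges did not come near each other.

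Tagln (transgelin) fell by 1.54 ± 0.10, Cnn1 (calponin) by 1.41 ± 0.15 and the skeletal actin gene Acta1 by 1.26 ± 0.09. Cnn2, whose promoter is printed above with that of Acta1, fell by 0.41 ± 0.05, from 196 to 201 CPM to 141 to 164 CPM. The factor Srf itself had a difference of -0.04 ± 0.04 (adjusted p = 0.621). In serum + PD03 without LIF, 17 of the 19 genes were lower on soft than on stiff substrates, against 3.42% of all genes. LIF on stiff substrates under PD03 raised 2 of the 19, against 0.294% of all genes. These were Flnc by 0.39 (adjusted p = 0.000635) and Tagln2 by 0.34 (adjusted p = 0.00244, but 0.101 without the first stiff serum + LIF + PD03 library). Without PD03, LIF on stiff substrates lowered 9 of the 19, against 0.695% of all genes. Among these, Flnc fell by 0.29 (adjusted p = 0.014, held in 2 of the 6 fits without 1 library) and Acta2 by 0.84 (adjusted p = 8.84e-05).

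Of 10 YAP-TEAD targets, 8 fell and none rose, against 7.56% and 6.71% of all genes, with a median of -0.63. Thbs1 (thrombospondin 1, chr2:118111876-118127133) was at 31.3, 33.8 and 39.0 CPM on soft serum + PD03 and at 87.3, 91.3 and 92.0 CPM on stiff serum + LIF + PD03, and it fell by 1.40 ± 0.06 (adjusted p = 8.37e-23). Thbs1 was the sole gene of 17702 (0.00565%) to pass for the interaction of substrate and LIF under PD03, and it passed in 5 of the 15 fits without 1 library, with adjusted p from 0.0127 to 0.197. It was lost without any 1 of the stiff serum + PD03 libraries, any 1 of the soft serum + LIF + PD03 libraries, the first or second stiff serum + LIF + PD03 library, or library 2 or 5 of soft serum + PD03. LIF raised it by 0.33 on stiff substrates (adjusted p = 0.0118, held in 2 of the 6 fits without 1 library), its difference with LIF on soft substrates was -0.23 (adjusted p = 0.291), and the effects differed by 0.57 (adjusted p = 0.0255). The interaction had an unadjusted p under 0.05 for 830 genes, or 4.69% of those tested, and the next in order were Flnc (adjusted p = 0.0521) and Acta2 (adjusted p = 0.0534), which did not pass. The kinase gene Axl fell by 1.33 ± 0.14, Crim1 by 0.72 ± 0.08, and the matricellular genes Ccn1 and Ccn2 by 0.64 ± 0.07 and 0.38 ± 0.04.

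Matrix genes fell in 13 of 18 cases and rose in none, against 7.56% and 6.71% of all genes, with a median of -0.29. Col1a1 (collagen I) was at 24.0, 30.7 and 34.3 CPM on soft serum + PD03 and at 75.0, 75.1 and 79.2 CPM on stiff serum + LIF + PD03, a fall of 1.36 ± 0.10 (adjusted p = 4.27e-15). Col12a1 fell by 1.68 ± 0.13, the collagen chaperone gene Serpinh1 by 0.59, and the basement membrane genes Col4a1 and Col4a2 by 0.32 and 0.40. Fn1, the gene of fibronectin, which also coated the gels, fell by 0.13 ± 0.04 (adjusted p = 0.0223) with overlapping ranges.

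Of 16 integrin and focal adhesion genes, 6 fell and 1 rose, against 7.56% and 6.71% of all genes. Lpp, a zyxin-family protein of focal adhesions, was at 88.3, 94.7 and 106 CPM against 202, 202 and 205 CPM, and it fell by 1.10 ± 0.05 (adjusted p = 1.05e-21). Parva, a partner of integrin-linked kinase, fell by 0.86 ± 0.07, the integrin genes Itgb1 and Itga3 by 0.42 and 0.44, and talin 1 (Tln1) by 0.37. Itgb5 rose by 0.18 with an adjusted p of 0.0496, and it passed in 3 of the 15 identifier assignments.

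**Figure D5:**
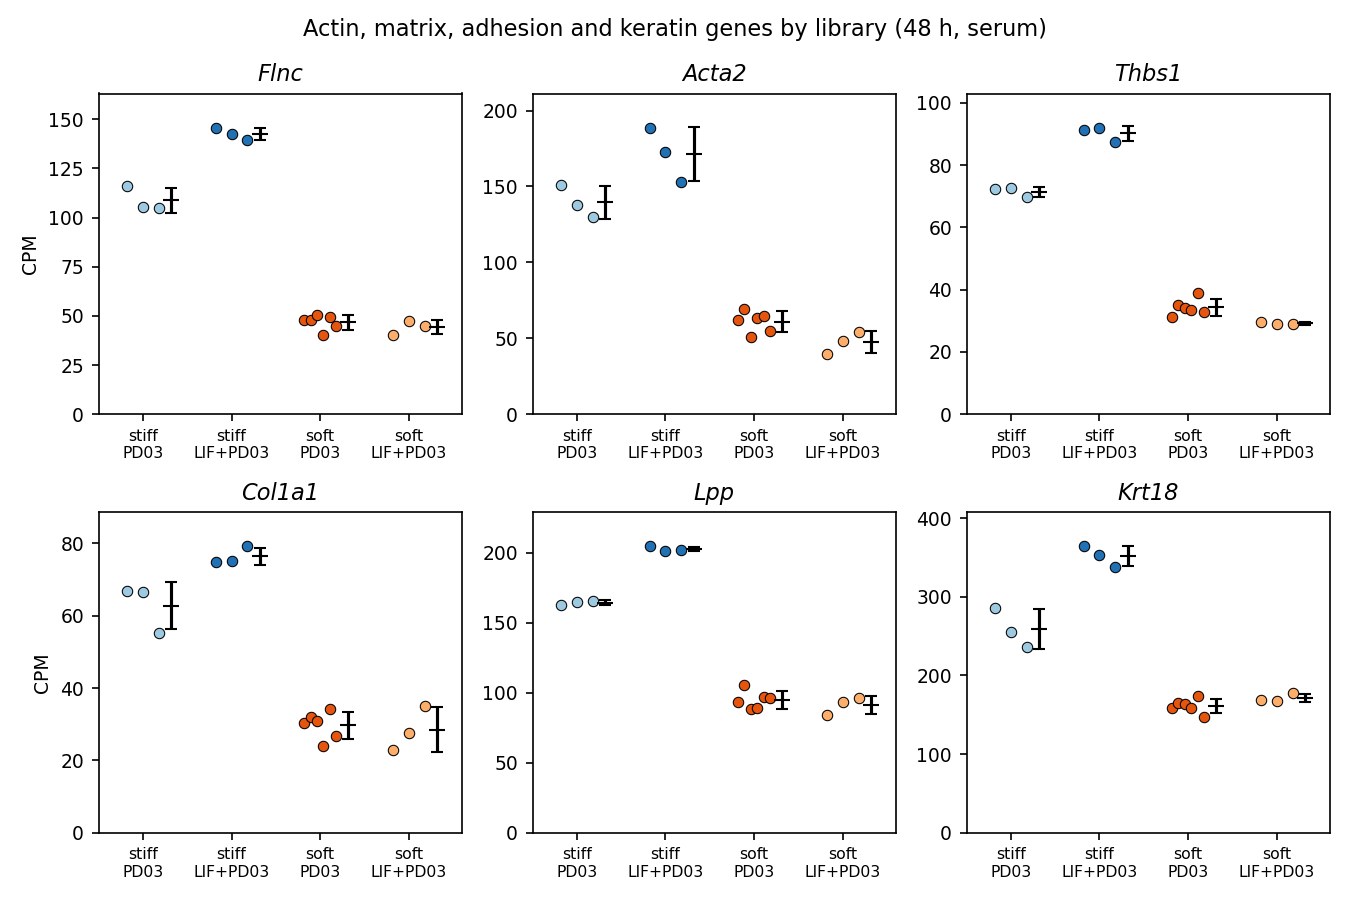
Expression (CPM, linear axis from 0) of Flnc, Acta2, Thbs1, Col1a1, Lpp and Krt18 in each library of the 4 PD03 groups, with the mean and SD beside the points (n = 6 for soft + PD03, n = 3 for the others). For each gene both soft groups lie below both stiff groups, and Flnc ranges from 40.1 to 50.5 CPM on soft + PD03 against 139 to 146 CPM on stiff + LIF + PD03.

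Markers of other cell types were read because mESC cultures can hold differentiating cells, and in bulk RNA fewer cells of a type and less RNA per cell cannot be told apart. Of 6 trophoblast markers, 5 fell and none rose, against 7.56% and 6.71% of all genes. Their summed level was 341 to 377 CPM on soft serum + PD03 and 608 to 647 CPM on stiff serum + LIF + PD03. The sum is set by its highest genes, and Krt18 made up a large part of it. The keratin gene Krt18, also used by other epithelia, was at 147, 161 and 174 CPM against 338, 354 and 364 CPM and fell by 1.13 ± 0.05 (adjusted p = 7.61e-22). LIF raised Krt18 by 0.44 on stiff substrates under PD03 (adjusted p = 3.9e-05), where the substrate difference in serum + PD03 was -0.68. Krt7 fell by 0.997 ± 0.10, Cdx2, a trophoblast-defining factor, by 1.02 ± 0.16 from 9.05 to 10.5 CPM, Gata3 by 0.43 and Tfap2c by 0.29. Elf5, which defines trophoblast stem cells, was at no more than 0.861 CPM in any of the 9 libraries.

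Of 6 fibroblast markers tested, the collagen genes Col1a1 and Col1a2 fell, and Dcn, which marks fibroblasts, was at no more than 0.246 CPM. The fibroblast sum was 30.2 to 41.5 CPM on soft serum + PD03 and 85.1 to 91.3 CPM on stiff serum + LIF + PD03. Most of this sum was Col1a1, whose values are given with the matrix genes, and 4 of the 6 markers did not pass. Of 8 primitive endoderm markers, Dab2 and Gata6 fell by 0.56 and 0.54, and Cubn and Gata4 rose by 0.69 and 0.53. Their summed level was lower on soft serum + PD03, at 93.3 to 117 CPM against 139 to 146 CPM, without overlap. Such a sum is set by its highest genes, while the list had no common direction, with 4 of 8 differences above 0 and a median of 0.015. The part of such cells in the differences of the other lists was not tested.

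The MEK inhibitor PD03 was present in both arms. Of 12 ERK targets tested, 4 rose and 3 fell, against 6.71% and 7.56% of all genes. The feedback inhibitor Spry2 rose by 0.29 ± 0.07 (adjusted p = 0.00212) and the transcription factor Etv5 by 0.15 ± 0.04, while Etv4 and Spry4 rose by 0.84 and 0.94 from medians of 0.724 and 0.596 CPM. The phosphatase genes Dusp5 and Dusp4 and the early response gene Ier3 fell by 0.56, 0.37 and 0.56. Dusp5 passed in all 15 identifier assignments and the other 6 did not.

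Of 16 glycolysis genes, 10 rose and 2 fell, against 6.71% and 7.56% of all genes, with a median of 0.15. Of these 12 genes, 6 passed in all 15 identifier assignments and 9 passed without each of the 9 libraries in turn. The enzyme genes Pfkp, Ldha and Pgam1 rose by 0.32 ± 0.05, 0.22 ± 0.04 and 0.21 ± 0.05. For Pfkp, soft library 3 stood apart at 116 CPM, with the nearest at 106 CPM. The genes that fell were the glucose transporters, Slc2a1 by 0.52 ± 0.06 (adjusted p = 4.78e-10) from 579 to 648 CPM to 373 to 450 CPM, and Slc2a3 by 0.21 ± 0.05. LIF under PD03 on stiff substrates changed 1 gene of the list, against 0.514% of all genes.

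The genes with the largest rise at 5 CPM or more and no overlap between groups were led by Trh, a hormone precursor gene that mESCs express. Trh was at 7.75, 10.9 and 12.7 CPM on soft serum + PD03 and at 3.15, 4.02 and 4.42 CPM on stiff serum + LIF + PD03, and it rose by 1.44 ± 0.14 (adjusted p = 2.31e-11), or 2.71-fold. LIF lowered Trh by 0.79 on stiff and by 0.69 on soft substrates, calls that held in 4 of 6 and 7 of 9 fits without 1 library, and the soft substrate raised it by 0.65 in serum + PD03. The next were the metal transporter gene Slc11a1 (0.80), the retinoid-binding protein gene Crabp1 (0.76), the RNase P RNA gene Rprl3 (0.76), Cfp (0.74), Zfp459 (0.72), Ccdc92b (0.72), Dab1 (0.70), Lefty2 (0.70) and Cubn (0.69). Counts of Rprl3 are uncertain because a near-identical copy exists, and likewise those of Zfp459 among zinc finger genes.

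The genes with the largest fall were Gbp2b (-1.80), the collagen crosslinker gene Lox (-1.77), Col12a1, the protease gene Prss23 (-1.66), Flnc, Dppa1 (-1.55), the membrane protein gene Pmp22 (-1.54), Tagln, Acta2 and the basement membrane gene Fras1 (-1.49). Lox (lysyl oxidase) was at 0.861 to 2.03 CPM on soft serum + PD03 and at 4.32, 5.23 and 5.51 CPM on stiff serum + LIF + PD03. Gbp2b belongs to a family of near copies, so its counts are uncertain. All 20 genes passed without each of the 9 libraries in turn, and all but Rprl3 and Cubn passed in all 15 identifier assignments.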

How the data were processed

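RNA-seq libraries were prepared with a NuGen kit per the labels, and the strand setting is not given in the sources used here. The deposited table holds whole-number read counts per Ensembl gene, which the authors made with STAR 2.5.2a and HTSeq on GRCm38 per the submitters' processing notes, with no normalization. Columns were tied to groups by name, and library numbers are only names, since the columns carry no replicate number. Genes with low counts were left out with edgeR's filterByExpr, and 17702 genes holding 99.92% of counts were tested. All 36 libraries in 11 groups were fitted with TMM scaling and the quasi-likelihood test of edgeR 4.0.16 in R 4.3.3, and p-values were adjusted over all genes by the Benjamini-Hochberg method at 0.05. DESeq2 1.42.0, other scaling, filters and sample sets were alternatives. The narrow margin of the report is a fold of 1.25 either way. Intervals are 95% intervals of the fitted log2 difference. Depth limits precision for genes of a few CPM.

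Named genes were all members of the LIF, STAT3 and pluripotency lists, up to 5 members with the smallest adjusted p of each other list, the 10 largest differences each way among genes of at least 5 CPM whose groups did not overlap, the 5 genes each way with the smallest p for LIF without PD03, and the 3 with the smallest interaction p. Elf5, Dcn, Dusp6, Tagln2 and the Socs3 promoter were named outside that rule. The comparison and the lists were chosen with earlier results of these data known. Promoter sequences came from RefSeq. A pathway gene is not reported here and was left out of its list. The statistics were tested on simulated data.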

Additional observations from a re-analysis of the deposited data

Results flagged for a closer look

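Of 134 named genes, 11 had 1 soft serum + PD03 library far from the other 5 by Dixon's criterion, and chance gives about 1 in 20. Library 3 held 5 of them, at 4.43 CPM for Axl, 348 for Klf2, 116 for Pfkp, 2330 for Pkm and 1630 for Sall4, where the nearest libraries were at 3.57, 391, 106, 1950 and 1450 CPM. Library 2 stood apart for Ccdc92b (10.4 CPM, nearest 8.31), Dab1 (7.07, nearest 5.69) and Tpm1 (269, nearest 259). Library 4 stood apart for Ankrd1 (0.345 CPM, nearest 0.678) and Dusp5 (13.8, nearest 10.7), and library 1 for Fras1 (3.72 CPM, nearest 4.59).

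The effect of LIF on Thbs1 under PD03 differed between substrates by 0.57 on the log2 scale by the interaction term of edgeR (adjusted p = 0.0255). The call held in 5 of the 15 fits without 1 library, with differences from 0.524 to 0.592 and adjusted p from 0.0127 to 0.197.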

How the results depend on the processing

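No paired analysis was possible because the columns carry no replicate numbers. The genes followed here, with every list member that passed, held 124 past the threshold, and none of these changed direction under any alternative run. They were chosen for passing in the same data, so a kept direction was likely. Counting each gene in each run, a gene of the 124 no longer passed in 156 cases. In 32 cases a followed gene that had not passed did so. The cause of the changes below was not tested.

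With DESeq2, 156 genes changed with LIF on stiff and 44 with LIF on soft substrates under PD03, and 3 passed for the interaction. Without a filter on low counts these were 141, 73 and 21, and 381 genes changed with LIF without PD03. For the comparison of soft serum + PD03 with stiff serum + LIF + PD03, 2053 genes then passed, 740 higher and 1313 lower. With LIF-responsive genes defined at an adjusted p of 0.01, fewer genes were defined, and 54 differed in place of 111 of 249. These were 24 of the 63 raised and 30 of the 50 lowered by LIF, in place of 42 of 126 and 69 of 123. Defined without 1 stiff serum + LIF library, 50 of 118, 60 of 142 and 97 of 202 differed. The library identifier was fitted as a term in the 15 PD03 libraries alone, where 2799 genes passed in the main comparison without it. With the term, the main count was as low as 1184, with 387 to 974 higher and 797 to 1236 lower. The counts were 132 to 170 for LIF on stiff substrates, where both groups carried the same identifier, and 7 to 44 for LIF on soft substrates. They were as low as 376 and 326 for the substrate without and with LIF and 70 for the LIF-responsive genes. The interaction count was at most 9. The sample set and the term both differ from the fit of all 36 libraries.

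Leaving out 1 library at a time gave 1617 to 2450 genes in the main comparison, with the lowest counts (1617, 1764 and 1735) without a stiff library. It gave 24 to 82 for LIF on stiff, 3 to 22 for LIF on soft, 520 to 954 and 905 to 1122 for the substrate without and with LIF, 0 to 3 for the interaction, 118 to 231 for LIF without PD03, 50 to 110 LIF-responsive genes (85 to 110 with their definition kept) and 88 to 106 list members.

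Genes that did not pass changed sign as follows. Without the filter, Il6st was at -0.012 and Dppa3 at -0.004. With only the compared groups, Il6st was at -0.006, and with only the PD03 groups at -0.004. Without soft libraries 2 and 3, Dppa3 was at -0.006 and Lef1 at -0.013. With the identifier as a term, the extremes were -0.081 for Il6st, -0.056 for Dppa3, -0.554 for Lef1, -0.028 for Pou5f1, -0.002 for Nr5a2, 0.003 for Dnmt3b, -0.069 for Tyk2, -0.021 for Cish, 0.025 for Sbno2, 0.222 for Socs1, -0.236 for Sox3, 0.013 for Lin28a, 0.061 for Junb and 0.214 for Pou3f1. Leaving out 1 library at a time gave -0.012 to 0.022 for Il6st, -0.010 to 0.028 for Dppa3, -0.198 to 0.305 for Lef1, -0.024 to 0.027 for Lin28a, -0.224 to 0.029 for Socs1 and -0.232 to 0.152 for Pou3f1.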

Other observations

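Other gene groups were counted between soft serum + PD03 and stiff serum + LIF + PD03, where 14.3% of all genes passed. Of 22 cholesterol synthesis genes 2 rose and none fell, of 15 genes of the amino acid stress response 1 rose and 1 fell, and of 8 DNA methylation genes 2 rose and 1 fell. None of the 5 primitive streak markers passed, and their summed level was 6.99 to 9.66 CPM on soft serum + PD03 and 7.13 to 7.85 CPM on stiff serum + LIF + PD03. Of 4 neuroectoderm markers 1 rose and 1 fell, with sums of 130.4 to 145 CPM and 134 to 145 CPM.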
